A study of Mus musculus with 19 samples.

Results

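The genes described here are 49 mouse genes of the cell cycle and of DNA replication. They were chosen by symbol as a named set, with no measured value as the criterion but with earlier results of these data known. They comprised 28 genes of the G1/S phase and 21 genes of the G2/M phase. RNA had been sequenced from single embryos at embryonic day 9.5 (E9.5) in which Mesp1-Cre deleted both floxed alleles of Chd7 (Mesp1-Cre; Chd7 fl/fl, cKO), and from Mesp1-Cre embryos as control, so that every embryo carried the Cre. Dissections were of the heart with its outflow tract ('HEART', 4 cKO and 4 control samples) and of the distal pharyngeal apparatus ('SHF', for second heart field, 6 cKO and 5 control samples). There were fewer 'HEART' than 'SHF' samples, so not every embryo gave both. Mesp1-Cre acts in early cardiogenic mesoderm and its descendants, so cells of other origins in either dissection kept Chd7. The 'HEART' data were read counts for 24421 genes, among them all 49 members, and all 49 passed the filter on low counts. The 'SHF' data were 1 FPKM value (fragments scaled to length and to library size) per genotype for 32568 loci, a unit taken from the layout of the table and the study's own mention of FPKM. For 43 members at least 1 locus carried their symbol alone. Ccne2 and Rrm2 had 2 such loci each, and that of higher FPKM was used. Of these 43, all but Cdkn2c averaged at least 1 FPKM, and the 42 that did are described below.

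Cells commit to division in G1, when cyclin D and cyclin E kinases inactivate the retinoblastoma family of pocket proteins and free E2F factors to switch on the genes of DNA synthesis. A later wave, driven by B-MYB and FOXM1 with the MuvB complex, supplies the cyclins, kinases and motor proteins of mitosis. The heart tube at this stage grows both by division of its own muscle cells and by adding cells from the second heart field, a proliferating progenitor pool in the pharyngeal mesoderm. CHD7 is an ATP-dependent chromatin remodeller, and the question asked here was whether its loss altered the level of the division genes.

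In 'HEART', Chd7 had 35.8, 43.5, 42.7 and 20.4 CPM (counts scaled to library size) in cKO 1 to 4, against 230, 224, 231 and 242 CPM in control 1 to 4, so each library stood on the side of its label. Library totals were 8640839 to 15030099 counts. The 8 cardiomyocyte markers summed to 35783 to 39415 CPM in cKO and 35541 to 40662 CPM in control, and 0 of 8 passed the test (1 at an unadjusted p of 0.05, 0 with DESeq2 and 0 with limma-voom). The erythroid markers summed to 1491 to 6146 CPM in cKO, against 4653 to 13448 CPM in control, with the genotypes overlapping. All 10 tested had a fold change below 0, with a median log2 fold change of -0.79. Of these 0 passed (3 lower and 0 higher at an unadjusted p of 0.05, 0 with DESeq2 and 0 with limma-voom). Leaving erythroid genes out of the library sizes changed neither the number nor the identity of the members called. Epithelial and endoderm markers summed to 500.0 to 558 CPM in cKO, against 245 to 502 CPM in control. Of the 5 tested 1 was higher and 0 lower, against 3.51% higher and 2.92% lower of all genes. A fold change above 0 was found in 4 of the 5, with a median log2 fold change of 0.61. At an unadjusted p of 0.05, 3 were higher and 0 lower, with 1 called by DESeq2 and 2 by limma-voom. The 8 endothelial markers summed to 909 to 1163 CPM in cKO, against 823 to 1133 CPM in control. Of the endothelial markers 7 had a fold change above 0, with a median log2 fold change of 0.28, but 0 passed (4 higher and 0 lower at an unadjusted p of 0.05, 1 with DESeq2 and 0 with limma-voom). The part of these cell types in the results below was not tested. Xist, which marks female cells, had 34.6 to 86.3 CPM in the cKO embryos and 61.4 CPM in control 1, but at most 1.28 CPM in the other control embryos, so sex and genotype were nearly aligned. In these bulk samples fewer cells of a type and less RNA per cell cannot be told apart.

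Most cell cycle genes differed little between the genotypes in 'HEART'. Of the 49 genes 2 rose in cKO and 0 fell, at an adjusted p of 0.1 in edgeR's quasi-likelihood test with Benjamini-Hochberg adjustment over 12694 genes, the threshold the study used. Over all genes tested, 6.44% passed, with 3.51% higher and 2.92% lower. The genes that rose were Cdkn1b, a CDK inhibitor, and Ccne2, a cyclin whose kinase that inhibitor restrains. At an unadjusted p of 0.05, 6 members were higher and 0 were lower, against 16.6% of all genes in either direction and 8.7% higher. In 4 members, all higher, no cKO embryo overlapped a control embryo, as in 10.2% of all genes (5.1% of all genes on the higher side). Log2 fold changes of the members ran from -0.12 for Foxm1 to 0.37 for Cdkn1b, with a median of 0.07 beside -0.01 for all genes tested. In 33 of the 49 the fold change was above 0, against 48.5% of all genes, and with library sizes left unscaled this number was 28. Intervals were narrow for this set. In 35 of the 49 the 95% interval lay within 0.32 of no change on the log2 scale, the size of a 25% increase, against 41.2% of all genes, and in 48 of the 49 within 1.5-fold, against 73.3%.

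**Figure D1:**
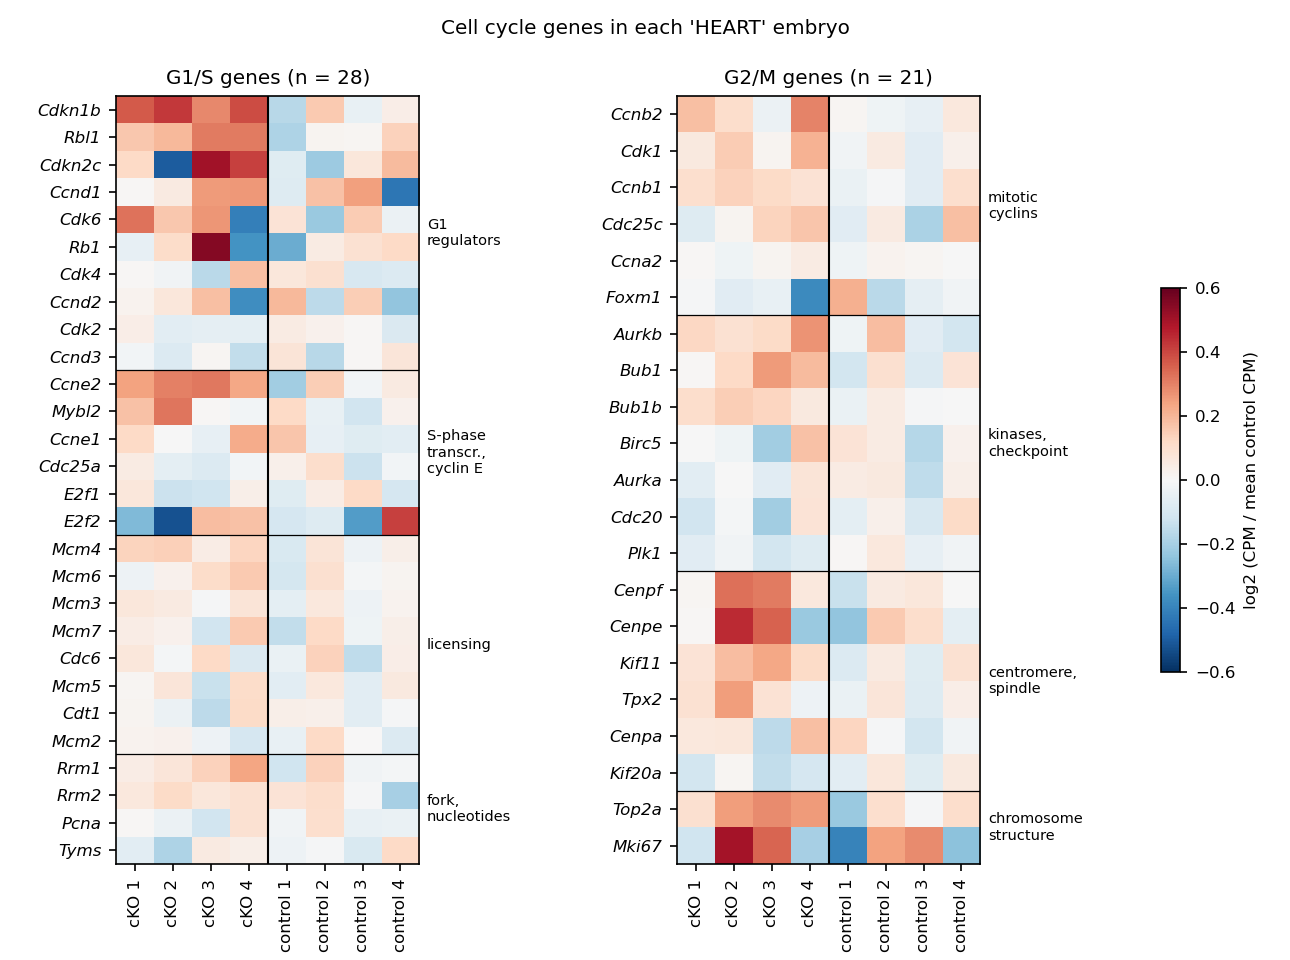
Colour gives the log2 ratio of each gene's CPM to the mean of the 4 control embryos, with cKO embryos 1 to 4 left of control embryos 1 to 4 and lines parting the functional groups. The rows of Cdkn1b and Ccne2 are red in all 4 cKO embryos, and the licensing genes are pale throughout. Mki67, E2f2, Cdkn2c, Rb1, Cenpe and Cenpf are among the genes that vary between embryos of 1 genotype.

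**Figure D2:**
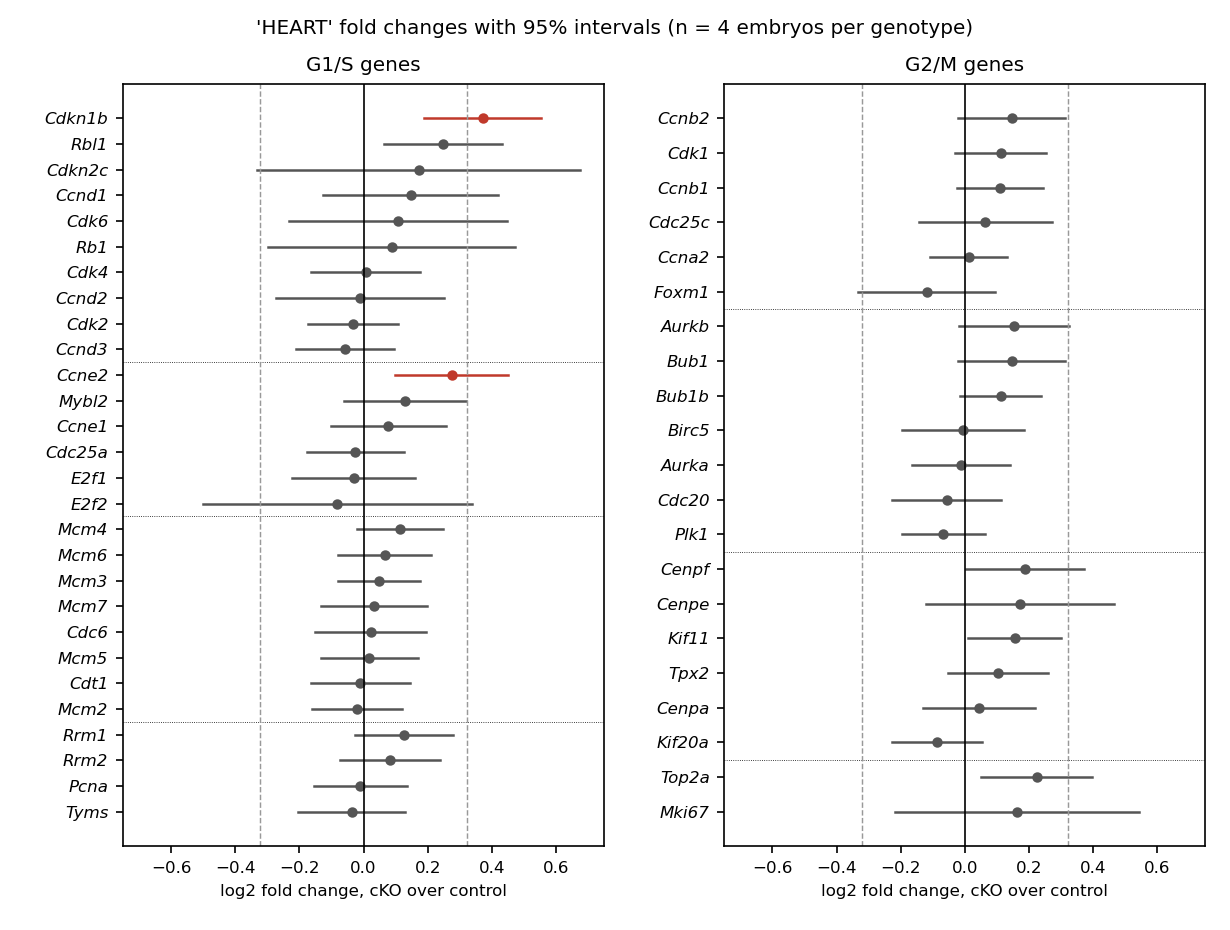
Points are log2 fold changes of cKO over control in 'HEART' and bars their 95% intervals (n = 4 embryos per genotype), with the 2 genes past an adjusted p of 0.1 in red and dashed lines at 0.32 on either side of 0. Apart from Cdkn1b, Ccne2, Rbl1, Top2a, Kif11 and Cenpf, every member's interval includes 0.

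The division into phases used gene function only, and promoter sequence was compared with it. The textbook elements are the E2F site of G1/S genes, and the CHR (cell cycle genes homology region) of G2/M genes, which often lies beside CCAAT boxes bound by NF-Y. RefSeq promoters (build GRCm38.p6, 250 bases before to 50 bases after the start) were at hand for 38 of the 49 genes. They were searched on both strands for TTTGAA (CHR), for CCAAT, and for TTTCCCGC, TTTCGCGC, TTTGCCGC or TTTGGCGC (E2F), matches being allowed to overlap. TTTGAA was present in 11 of 15 G2/M promoters and 1 of 23 G1/S promoters, against 18.1% of all 27025 promoters. CCAAT was present in 14 of 15 G2/M promoters and 12 of 23 G1/S promoters, against 37.9% of all promoters. An E2F form was present in 1 of 15 G2/M promoters and 10 of 23 G1/S promoters, against 2.32% of all promoters. A match describes letters in this window and is not a bound site. Fold changes in 'HEART' were set beside these matches. The 11 G2/M genes with TTTGAA had a median log2 fold change of 0.11 and the 4 without it 0.13, while the 10 G1/S genes with an E2F form had 0.02 and the 13 without it 0.08.

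The 180 bases before the start, 5′ to 3′ on the strand of the gene, are given for Cdkn1b, the member with the largest change, for Mcm6 as a G1/S gene with several E2F forms, and for Cdk1 and Top2a as G2/M genes. Capitals mark the matches. They lie at chr6:134920221-134920400 (plus strand), chr1:128359706-128359885, chr10:69352913-69353092 and chr11:99024190-99024369 (minus strand).
Cdkn1b: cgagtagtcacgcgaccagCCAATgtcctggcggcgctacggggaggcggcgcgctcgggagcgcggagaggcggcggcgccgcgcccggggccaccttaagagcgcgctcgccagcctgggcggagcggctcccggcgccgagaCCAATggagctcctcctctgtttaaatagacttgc
Mcm6: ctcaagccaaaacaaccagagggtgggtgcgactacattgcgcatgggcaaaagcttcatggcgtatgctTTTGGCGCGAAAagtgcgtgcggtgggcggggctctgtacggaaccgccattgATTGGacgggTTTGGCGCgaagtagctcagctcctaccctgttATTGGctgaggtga
Cdk1: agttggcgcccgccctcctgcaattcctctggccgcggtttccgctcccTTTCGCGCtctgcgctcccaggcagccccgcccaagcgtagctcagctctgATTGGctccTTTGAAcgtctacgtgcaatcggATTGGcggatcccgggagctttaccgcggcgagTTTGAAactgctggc
Top2a: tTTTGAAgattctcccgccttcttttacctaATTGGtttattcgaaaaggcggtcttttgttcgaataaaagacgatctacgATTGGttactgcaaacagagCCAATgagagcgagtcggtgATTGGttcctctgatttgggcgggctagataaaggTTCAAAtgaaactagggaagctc
The Cdkn1b stretch held 2 CCAAT boxes and neither of the other elements. Mcm6 held overlapping E2F forms, read on opposite strands, as well as CCAAT boxes, and Cdk1 held all 3 kinds of element.

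Among the G1 regulators, Cdkn1b rose in cKO hearts. It encodes an inhibitor of cyclin E and cyclin A kinases that holds cells out of S phase, and lies at chr6:134920401-134925513 (mm10, plus strand). Cdkn1b had 42.1, 43.7, 39.8 and 42.9 CPM in cKO 1 to 4, against 29.1, 36.3, 31.6 and 33.5 CPM in control 1 to 4. Every cKO embryo stood above every control embryo. The means were 42.1 ± 1.69 CPM in cKO and 32.6 ± 3.06 CPM in control (SD, n = 4 each). Cdkn1b thus had a log2 fold change of 0.37 with an SE of 0.08 (adjusted p = 0.0242), an increase of 29.4% with a 95% interval of 14.02% to 46.8%. Leaving out any 1 embryo kept the adjusted p between 0.0206 and 0.0857. With log2 Xist as a covariate the log2 fold change was 0.51 and the adjusted p was 0.101.

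Rbl1, a pocket protein that represses E2F targets, had 38.6, 39.4, 42.7 and 42.8 CPM in cKO and 30.3, 34.9, 34.7 and 37.9 CPM in control. The genotypes did not overlap, but the log2 fold change of 0.25 ± 0.09 (SE) did not pass after adjustment (adjusted p = 0.148). Its relative Rb1 averaged 11.3 ± 3.05 CPM in cKO and 10.6 ± 1.32 CPM in control (SD, n = 4 each), with 1 cKO embryo, cKO 3, at 15.4 CPM. The remaining G1 regulators are the D cyclins, their kinases and Cdkn2c, an inhibitor of those kinases, and their log2 fold changes ran from -0.06 for Ccnd3 to 0.17 for Cdkn2c, with adjusted p of 0.626 or more. Cdkn2c was the least expressed member, at 2.46 to 4.92 CPM in cKO and 2.99 to 3.96 CPM in control, and the only one whose 95% interval reached beyond 1.5-fold.

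Corrected for exon length, Ccnd2 was the leading D cyclin of the heart. Its level was 177 RPKM (CPM divided by exon length in kb) in cKO and 179 RPKM in control, against 41.8 RPKM in cKO and 43.5 RPKM in control for Ccnd3 and 26.6 RPKM in cKO and 24.0 RPKM in control for Ccnd1. Cdk4, the kinase partner of the D cyclins, had 164 RPKM in both genotypes, while its relative Cdk6 had 0.963 RPKM in cKO and 0.890 RPKM in control. Exons of Ccnd1 share 1100 bases with LTO1, and those of Cdk4 641 bases with Tspan31, on the opposite strand. Smaller opposite-strand overlaps were those of Ccnd3 (361 bases with Bysl), Ccnd2 (368 with 9330179D12Rik and 372 with Gm43126) and Cdk6 (368 with Gm17590). Exon length was the union of all annotated exons of a gene, whichever transcripts the heart makes. All levels in this comparison are therefore uncertain. Ccnd2 varied between embryos, from 1297 to 1901 CPM in cKO and from 1428 to 1925 CPM in control. Its order among the D cyclins was therefore the same in both genotypes, and no difference between genotypes stood above the spread.

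Cyclin E and the S-phase transcription factors control entry into DNA synthesis. Ccne2, which encodes cyclin E2 and lies at chr4:11191351-11204779 (mm10, plus strand), had 57.2, 59.6, 60.0 and 56.8 CPM in cKO 1 to 4, against 41.8, 53.5, 47.8 and 50.1 CPM in control 1 to 4. All cKO embryos were above all control embryos, with control 1 the lowest. Ccne2 had a log2 fold change of 0.28 with an SE of 0.08 (adjusted p = 0.0867), an increase of 21.03% with a 95% interval of 7.10% to 36.8%. This call was close to the threshold: without cKO 1, cKO 2, cKO 3, control 1, control 3 or control 4 in turn the adjusted p was 0.118 to 0.230, without cKO 4 or control 2 it was 0.0583 or 0.0657, with unscaled library sizes 0.129 and with log2 Xist as a covariate 0.117, where the log2 fold change was larger, at 0.45. Exons of Ccne2 share 609 bases with Ints8 on the opposite strand, and whether reads were counted by strand was not stated in what was read here, so its count is uncertain. Ints8 itself had a log2 fold change of 0.04 (adjusted p = 0.888). The same uncertainty applies to other members with opposite-strand overlaps. They include Cdc25c (623 bases with Gm3550), Ccna2 (510 with Exosc9), Rb1 (488 with Rcbtb2 and 408 with Lpar6) and Mcm7 (321 with Ap4m1). Foxm1 shares 144 bases with Tex52 and 97 with Gm44596 on the same strand.

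The other cyclin E gene, Ccne1, averaged 74.4 ± 6.34 CPM in cKO and 70.5 ± 5.84 CPM in control (SD, n = 4 each; adjusted p = 0.713). Whether the fold changes of the 2 genes differ was not tested. Mybl2 encodes B-MYB, which carries the MuvB complex to G2/M promoters, and had 81.6, 90.4, 72.6 and 71.4 CPM in cKO and 78.5, 70.2, 66.8 and 73.7 CPM in control. Its genotypes overlapped (log2 fold change 0.13 ± 0.09, SE, adjusted p = 0.511). E2f1, E2f2 and Cdc25a, the last a phosphatase that activates CDK2, had log2 fold changes between -0.08 and -0.03, none passing the test.

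The replication licensing genes, Mcm2 to Mcm7 of the helicase ring with its loaders Cdc6 and Cdt1, differed little between the genotypes. Of these 8 genes 0 passed the test, 0 had an unadjusted p of 0.05 or less, and neither DESeq2 nor limma-voom called any. In all 8 the 95% interval lay within 0.32 of no change on the log2 scale, and the log2 fold changes ran from -0.02 for Mcm2 to 0.11 for Mcm4. Mcm4 had 246, 247, 231 and 245 CPM in cKO and 210, 236, 219 and 230 CPM in control, and Mcm6 had 313, 326, 345 and 357 CPM in cKO and 297, 342, 317 and 324 CPM in control. In both genes the genotypes overlapped, and the log2 fold changes were 0.11 ± 0.06 for Mcm4 (SE, adjusted p = 0.4) and 0.07 ± 0.07 for Mcm6 (SE, adjusted p = 0.691).

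At the fork, Rrm1 and Rrm2 form ribonucleotide reductase, Tyms makes thymidylate, and Pcna is the sliding clamp of the polymerases. Rrm1 had 449, 457, 479 and 513 CPM in cKO and 400, 478, 429 and 432 CPM in control (log2 fold change 0.13 ± 0.07, SE, adjusted p = 0.407). Rrm2 had 297, 308, 298 and 303 CPM in cKO and 301, 306, 283 and 248 CPM in control (0.08 ± 0.07, adjusted p = 0.627). Genotypes overlapped for both, with control 1 the lowest for Rrm1 and control 4 the lowest for Rrm2. Pcna averaged 169 ± 10.2 CPM in cKO and 170 ± 8.2 CPM in control (SD, n = 4 each), and its 95% interval spanned a decrease of 10.2% to an increase of 9.90%.

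**Figure D3:**
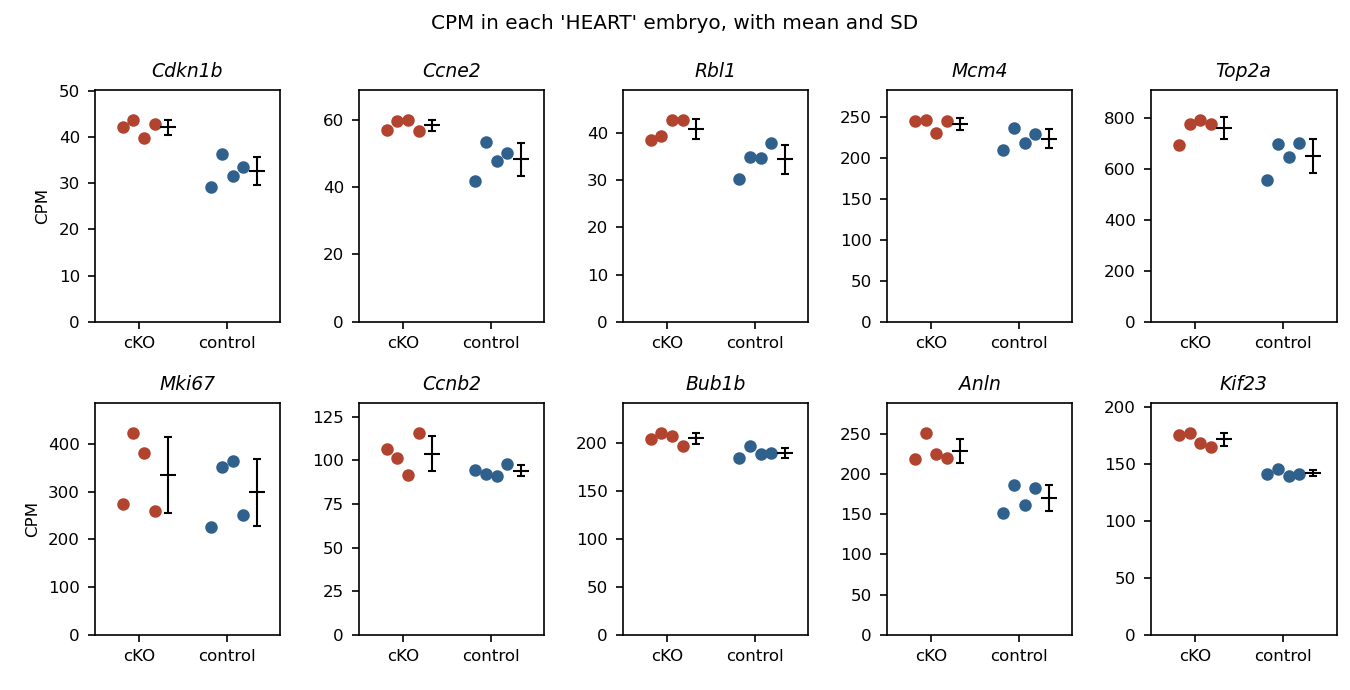
Each point is the CPM of 1 'HEART' embryo, cKO left of control, for 8 members and for Anln and Kif23, with the mean and SD beside the points and axes starting at 0. The genotypes do not overlap for Cdkn1b, Ccne2, Rbl1, Bub1b, Anln and Kif23, and overlap widely for Mki67.

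Turning to G2/M, the mitotic cyclins and their kinase were each a little higher in cKO on average, but 0 of 6 genes of this group passed the test (0 at an unadjusted p of 0.05, 0 with DESeq2 and 0 with limma-voom). Ccnb2, a B-type cyclin, had 106, 101, 91.8 and 116 CPM in cKO and 94.6, 92.1, 90.8 and 98.0 CPM in control. Ccnb1, which with Cdk1 forms the kinase that starts mitosis, had 168, 173, 170 and 166 CPM in cKO and 153, 157, 150 and 169 CPM in control. Both overlapped between genotypes, Ccnb1 through control 4 alone, with log2 fold changes of 0.15 ± 0.08 (SE, adjusted p = 0.375) and 0.11 ± 0.06 (SE, adjusted p = 0.407). Cdk1 averaged 218 ± 13.4 CPM in cKO and 202 ± 7.61 CPM in control (SD, n = 4 each, adjusted p = 0.428). Ccna2, cyclin A2, was nearly level, at 283 ± 5.96 CPM in cKO and 281 ± 3.91 CPM in control (SD, n = 4 each), and its 95% interval spanned a decrease of 7.17% to an increase of 9.55%. Foxm1, a transcription factor of the G2/M wave, was the lowest member by fold change, at -0.12 ± 0.10 (SE, adjusted p = 0.612).

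Of the 7 mitotic kinases and checkpoint genes, 0 passed the test (0 at an unadjusted p of 0.05, 0 with DESeq2 and 0 with limma-voom), and the fold change was above 0 in 3 and below 0 in 4. Bub1b, a kinetochore protein of the spindle checkpoint, had 204, 210, 208 and 197 CPM in cKO and 184, 196, 188 and 189 CPM in control. Its genotypes stood apart by less than 1 CPM (log2 fold change 0.11 ± 0.06, SE, adjusted p = 0.369). Aurkb, the kinase of the chromosomal passenger complex, had 79.5, 77.8, 78.9 and 87.8 CPM in cKO and 71.8, 82.9, 69.7 and 67.5 CPM in control, and overlapped through control 2 (0.15 ± 0.08, SE, adjusted p = 0.370). Plk1, Cdc20, Aurka and Birc5, which act in mitotic entry, anaphase onset, spindle assembly and the passenger complex, had log2 fold changes between -0.07 and -0.01.

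The centromere and spindle genes also gave 0 calls of 6 (2 at an unadjusted p of 0.05, 0 with DESeq2 and 0 with limma-voom). Kif11, the motor that pushes spindle poles apart, had 160, 172, 178 and 164 CPM in cKO and 143, 157, 144 and 161 CPM in control. Cenpf, a large kinetochore protein, had 170, 212, 209 and 176 CPM in cKO and 154, 175, 177 and 168 CPM in control. In Kif11 only control 4 reached into the cKO range, while in Cenpf control 2 and control 3 did so. Log2 fold changes were 0.15 ± 0.07 for Kif11 (SE, adjusted p = 0.264) and 0.19 ± 0.09 for Cenpf (SE, adjusted p = 0.292). Kif20a, a motor of the midzone, was the only gene of the group below 0 (-0.09 ± 0.06, SE, adjusted p = 0.564), and its exons share 1271 bases with Cdc23 on the opposite strand.

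Top2a, the topoisomerase that untangles sister chromosomes, and Mki67, whose protein coats them in mitosis, had the highest mean CPM of the G2/M genes. Top2a had 696, 775, 792 and 775 CPM in cKO and 556, 698, 646 and 700 CPM in control. Only cKO 1 lay within the control range, and control 1 was the lowest. The log2 fold change was 0.22 ± 0.08 (SE), which did not pass in edgeR (adjusted p = 0.163) but passed with DESeq2 (adjusted p = 0.0967) and with log2 Xist as a covariate (0.44, adjusted p = 0.0801). Without control 1 it was 0.16 (adjusted p = 0.372). Mki67, the usual marker of proliferating cells, had 275, 423, 381 and 260 CPM in cKO and 226, 353, 364 and 252 CPM in control. In each genotype 2 embryos were high and 2 low, so the difference between genotypes (0.16 ± 0.18, SE, adjusted p = 0.717) was much smaller than the spread within them.

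Mki67 had the largest mean within-genotype coefficient of variation of any member, 23.6%, while the median over the 49 genes was 6.91% and that over 10444 genes of at least 5 CPM was 9.02%. Long transcripts in general also differed in level between libraries. Relative to the mean of the 8 libraries, the median of 3637 genes with over 6 kb of exon was 0.03, 0.04, 0.07 and -0.07 on the log2 scale in cKO 1 to 4 and -0.05, -0.02, 0.01 and 0.004 in control 1 to 4. Mki67 has 10061 bases of exon, Cenpf 15433 and Top2a 9013. With the length trend of each library removed, a setting chosen after seeing the data, their log2 fold changes were 0.12, 0.13 and 0.20, and Cdkn1b (0.38) and Ccne2 (0.29) stayed past the threshold. The 14 members with at least 6 kb of exon had a median log2 fold change of 0.10 and the 35 shorter ones 0.06.

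As a set, the G2/M genes had a median log2 fold change of 0.11 with 15 of 21 above 0, and the G1/S genes one of 0.04 with 18 of 28 above 0. With unscaled library sizes these medians were 0.07 and 0.00, beside -0.04 for all genes. The mean log2 CPM over the 21 G2/M genes was 7.23, 7.34, 7.28 and 7.27 in cKO 1 to 4, against 7.16, 7.27, 7.17 and 7.23 in control 1 to 4. Over the 28 G1/S genes it was 6.62, 6.58, 6.64 and 6.63 in cKO, against 6.53, 6.59, 6.54 and 6.56 in control. In both lists 1 cKO embryo lay inside the control range, cKO 1 for G2/M and cKO 2 for G1/S. The G2/M mean exceeded the G1/S mean by 0.66 ± 0.07 in cKO and 0.65 ± 0.03 in control (SD, n = 4 each), so the balance of the phases differed between genotypes by less than the spread between embryos. Without cKO 2 the medians of the 2 lists were 0.02 apart, in place of 0.07. The embryo codes in the labels share a prefix, of unstated meaning, in 2 pairs of 1 cKO and 1 control embryo, and also in cKO 1 and cKO 2, of prefix 12, for which no control shares the code. Calls over all genes were 510 without cKO 1 and 500 without cKO 2, against 817 with all embryos. Within prefix 8 the cKO minus control difference in mean log2 CPM was 0.10 for G1/S and 0.11 for G2/M, and within prefix 19 it was 0.07 and 0.04. Cdkn1b differed by 0.33 and 0.35 log2 within these pairs, and Ccne2 by 0.33 and 0.18.

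**Figure D4:**
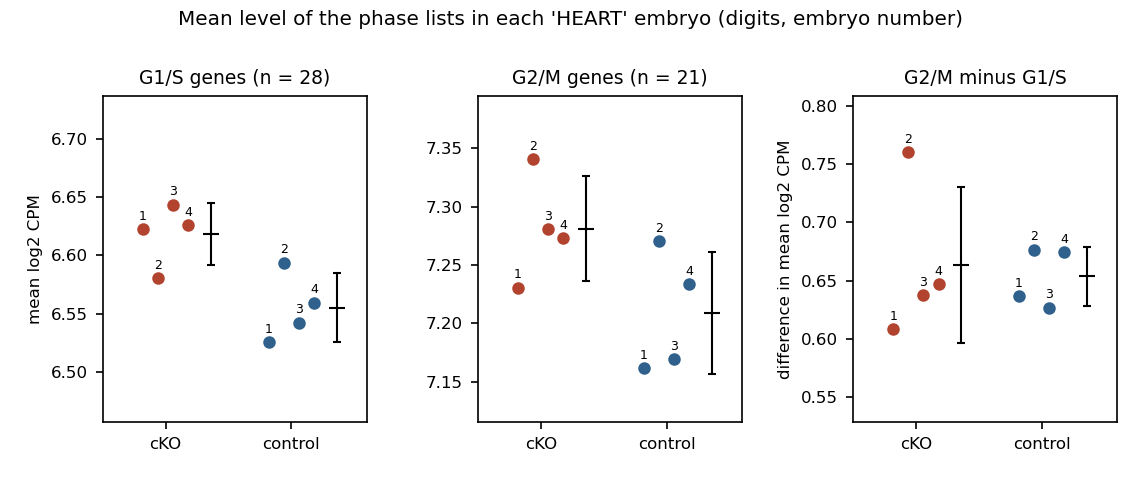
The mean log2 CPM of the G1/S genes, of the G2/M genes and their difference is shown for each 'HEART' embryo, cKO left of control, with the embryo number above each point and the mean and SD to the right. Axes do not start at 0, and each list has 1 cKO embryo inside the control range.

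Genes that act beside the members were read in the same fit. Of 50 further mitosis genes 2 rose in cKO 'HEART' and 0 fell, against 3.51% higher and 2.92% lower of all genes. At an unadjusted p of 0.05, 9 were higher and 0 lower, against 8.7% of all genes higher. Of the 50, 42 had a fold change above 0, against 48.5% of all genes, and the median log2 fold change was 0.11. Anln encodes anillin, the scaffold of the contractile ring that pinches dividing cells apart, and lies at chr9:22332012-22389188 (mm10, minus strand). Anln had 219, 251, 225 and 220 CPM in cKO and 152, 186, 162 and 182 CPM in control, with every cKO embryo above every control embryo. The log2 fold change was 0.43 ± 0.08 (SE, adjusted p = 0.00866), and leaving out any 1 embryo gave adjusted p of 0.00729 to 0.0369. Kif23, the midzone motor of the centralspindlin complex, at chr9:61915905-61946774 (mm10, minus strand), had 176, 177, 168 and 165 CPM in cKO and 142, 146, 140 and 141 CPM in control, again without overlap. The log2 fold change was 0.27 ± 0.06 (SE, adjusted p = 0.0195), with adjusted p of 0.00788 to 0.0792 when any 1 embryo was left out. With log2 Xist as a covariate Anln still passed (0.56, adjusted p = 0.066), and Kif23 did not (adjusted p = 0.276) although its log2 fold change was 0.26.

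Of 47 further replication genes 0 passed the test (3 at an unadjusted p of 0.05, all higher, 1 with DESeq2 and 0 with limma-voom), and the median log2 fold change was 0.02. Pole, the catalytic subunit of the leading strand polymerase, came nearest, with 101, 108, 105 and 109 CPM in cKO and 77.3, 99.8, 89.1 and 90.5 CPM in control. It did not overlap between genotypes (0.24 ± 0.08, SE, adjusted p = 0.125, and 0.0678 with DESeq2). Dut, which clears dUTP from the nucleotide pool, had 116, 109, 105 and 115 CPM in cKO and 105, 102, 90.04 and 90.4 CPM in control, overlapping through control 1 (0.20 ± 0.07, SE, adjusted p = 0.175). Among 13 E2F, DP and MuvB subunits 0 passed (0 at an unadjusted p of 0.05, 0 with DESeq2 and 0 with limma-voom), and those of smallest p overlapped between genotypes. E2f4, the partner of pocket proteins in repression, had 71.2, 64.3, 67.4 and 68.0 CPM in cKO and 77.6, 68.0, 73.6 and 79.5 CPM in control (-0.14 ± 0.07, SE, adjusted p = 0.354). Tfdp1, the DNA-binding partner of E2F factors, had 113, 105, 121 and 119 CPM in cKO and 110, 104, 104 and 106 CPM in control (0.11 ± 0.07, SE, adjusted p = 0.449).

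Of the 11 tested genes of a list of other CDK inhibitors and antiproliferative genes, 1 rose and 0 fell. Btg2, an antiproliferative gene, had 29.0, 30.5, 30.8 and 28.7 CPM in cKO and 22.2, 18, 25.1 and 24.8 CPM in control, with no overlap. Its log2 fold change was 0.40 ± 0.11 (SE, adjusted p = 0.0547), but the adjusted p was 0.115 to 0.149 without cKO 1, cKO 2, cKO 3, control 1 or control 2 in turn. Jun and Fos, which tissue handling induces along with Btg2, belong to a dissection stress list. That list summed to 169 to 187 CPM in cKO and 132 to 163 CPM in control, so the sums did not overlap. Of its 8 genes tested 2 were higher and 0 lower, against 3.51% higher and 2.92% lower of all genes, and DESeq2 called 3. At an unadjusted p of 0.05, 3 were higher and 0 lower, against 8.7% of all genes higher. The fold changes of the list were mixed, with 3 above 0 and 5 below, and a median log2 fold change of -0.03. The part of handling was not tested. Growth drivers gave 3 higher and 0 lower of 10, against 3.51% higher and 2.92% lower of all genes. Their directions were mixed, with 6 fold changes above 0 and 4 below, and log2 fold changes from -0.46 to 0.41. At an unadjusted p of 0.05, 4 were higher and 1 was lower. Igf1r, the receptor of insulin-like growth factors, had 292, 321, 322 and 253 CPM in cKO and 224, 196, 232 and 240 CPM in control (0.41 ± 0.09, SE, adjusted p = 0.019). Its ligand gene Igf2 had 6163, 6094, 6202 and 7026 CPM in cKO and 5386, 5353, 5541 and 5445 CPM in control (0.23 ± 0.06, SE, adjusted p = 0.0523). Neither gene overlapped between genotypes. Exons of Igf2 share 3596 bases with another gene of the same strand, so the count is uncertain. Wwtr1, a Hippo pathway coactivator, passed as well, with 103, 112, 99.0 and 86.9 CPM in cKO and 77.7, 82.6, 88.3 and 78.8 CPM in control, overlapping through cKO 4 (0.29 ± 0.08, SE, adjusted p = 0.0742). Without cKO 1, control 1, control 2 or control 4 in turn Igf2 had an adjusted p of 0.103 to 0.131, and without any 1 embryo other than cKO 4 and control 3 Wwtr1 had one of 0.128 to 0.240. With log2 Xist as a covariate the log2 fold changes of Btg2, Igf1r, Igf2 and Wwtr1 were 0.45, 0.40, 0.27 and 0.34, close to or above those without it, but none passed (adjusted p of 0.251 to 0.341), and with unscaled library sizes Igf2 (0.113) and Wwtr1 (0.106) did not.

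In the 'SHF', where each genotype had a single value and no test was possible, the cell cycle genes were almost level. Of the 42 genes 0 differed by 0.32 or more on the log2 scale in either direction, against 5.65% of 11030 loci (1.91% higher), and 1.99% of the 7993 loci with at least 5 FPKM. Log2 ratios of cKO over control ran from -0.11 for Cdk6 to 0.17 for E2f2, with a median of 0.02 beside -0.01 for all loci, and 27 of 42 were above 0, against 45.7% of loci. E2f2 was the only member past 1.1-fold, against 20.4% of loci and 11.2% of those with at least 5 FPKM, and it was also the least expressed of the 42, with a cKO value of 2.71 FPKM and a control value of 2.41 FPKM. Medians were 0.02 for 22 G1/S genes and 0.02 for 20 G2/M genes.

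The genes singled out in 'HEART' had small ratios in the 'SHF'. Cdkn1b had 16.4 FPKM in cKO and 15.4 FPKM in control, Ccne2 24.8 FPKM in cKO and 23.3 FPKM in control, and Rbl1 15.5 FPKM in cKO and 14.2 FPKM in control, log2 ratios of 0.09, 0.09 and 0.12. The Ccne2 locus used, chr4:11175910-11254259, reached past the gene on both sides. Top2a had 203 FPKM in cKO and 192 FPKM in control, and Mki67 32.2 FPKM in cKO and 31.8 FPKM in control. Anln had 27.3 FPKM in cKO and 26.7 FPKM in control, and Kif23 34.5 FPKM in cKO and 31.9 FPKM in control. All 7 were on the higher side in cKO, against 45.7% of all loci. Other genes called in 'HEART' went both ways. Wwtr1 was higher, with 14.7 FPKM in cKO and 13.5 FPKM in control. Igf1r was lower, with 29.2 FPKM in cKO and 29.9 FPKM in control. Igf2, with 473 FPKM in cKO and 490 FPKM in control, and Btg2 (log2 ratio -0.04) were lower too. With 1 value per genotype the spread between embryos is unknown, and whether the genotype difference depended on the dissection was not tested.

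Ccnd2 was also the highest D cyclin of the 'SHF' table. Ccnd2 had 175 FPKM in cKO and 166 FPKM in control and Ccnd3 72.7 FPKM in cKO and 76.4 FPKM in control, while a locus joining Ccnd1 to a microRNA gene had 74.9 FPKM in cKO and 81.1 FPKM in control. Cdk6 had 10.6 FPKM in cKO and 11.5 FPKM in control, and a locus joining Cdk4 to another gene 561 FPKM in cKO and 557 FPKM in control. Joint loci also held Pcna, Cdc6, E2f1 and Foxm1, whose values cannot be told from those of their neighbours. Among the licensing genes the log2 ratio lay between -0.01 for Mcm5 and 0.06 for Mcm7. Cdkn2c had 0.636 FPKM in cKO, against 0.510 FPKM in control, below the 1 FPKM minimum.

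Loci of like level had ratios about as narrow, with 5th and 95th percentiles of -0.14 and 0.12 for 1698 loci of 17.8 to 31.6 FPKM. Among genes that are not members, Chd7 had 18.9 FPKM in cKO and 28.2 FPKM in control, and all 7 cardiomyocyte markers kept were lower in cKO by 0.32 or more on the log2 scale, with a median log2 ratio of -0.91. The antiproliferative list held 1 gene past this size, the CDK inhibitor Cdkn1a, with 3.22 FPKM in cKO and 4.06 FPKM in control. Its log2 ratio of -0.33 lay inside the 5th and 95th percentiles of 1377 loci of 3.16 to 5.62 FPKM, -0.36 and 0.22. Btg2 had 5.54 FPKM in cKO and 5.70 FPKM in control. The 46 further replication genes and the 49 further mitosis genes kept had medians of 0.02 and 0.03, and 0 of either list passed 0.32 on the log2 scale.

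**Figure D5:**
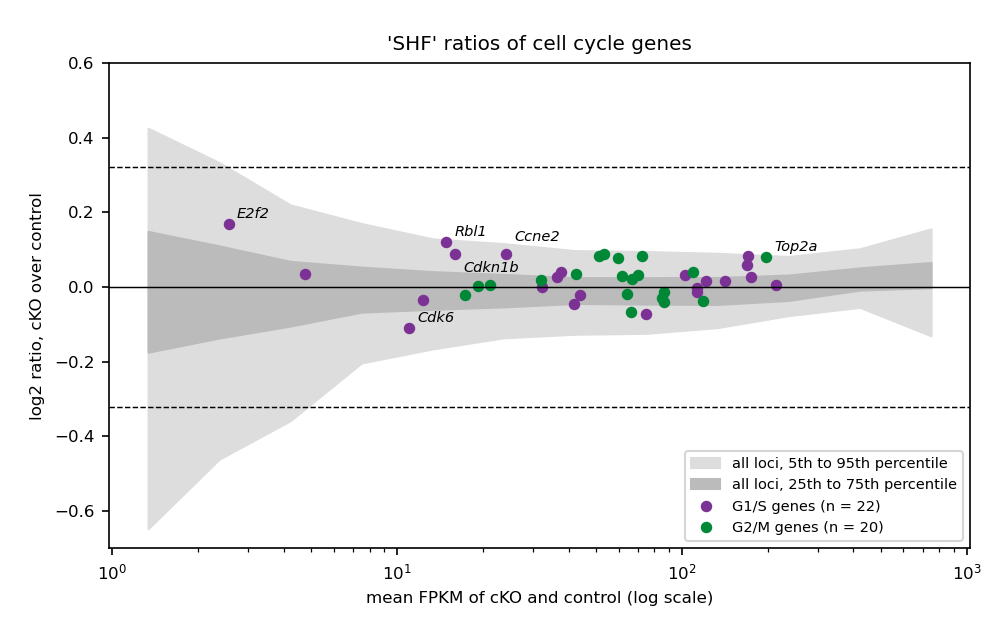
Log2 ratio of cKO over control in the 'SHF' is plotted against mean FPKM on a log axis for 22 G1/S and 20 G2/M genes, over grey bands that hold the 25th to 75th and the 5th to 95th percentiles of all loci of like level, with dashed lines at 0.32 on either side of 0. No member reaches the dashed lines, and E2f2, the highest, lies inside the outer band.

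Replication-dependent histone genes are transcribed in S phase, and their messages end in a stem-loop in place of a poly(A) tail. The 'HEART' libraries were poly(A)-selected and the 'SHF' libraries were made from total RNA after removal of ribosomal RNA, so these genes were read well in the 'SHF' only. In the 'SHF', 38 of them had at least 1 FPKM, summing to 34318.5 FPKM in cKO and 32557 FPKM in control. The median log2 ratio was 0.07, and 35 of the 38 were above 0, against 45.7% of all loci. Highly expressed loci also leaned higher, with medians of 0.02 for 69 loci of 316 to 562 FPKM and 0.04 for 49 loci of 562 to 1000 FPKM. These bands hold some of the histone genes themselves. Past 0.32 on the log2 scale were 1 higher, Hist1h4d, and 2 lower, Hist1h1t and Hist1h4n, and 21 of the 38 share a locus interval with another, so they are not separate measurements. Hist1h1a, a linker histone, had 2189 FPKM in the cKO and 2007 FPKM in the control.

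In 'HEART' the 24 of 68 histone genes that passed the filter summed to 51.1, 78.0, 60.9 and 57.9 CPM in cKO 1 to 4, against 45.3, 162, 45.5 and 53.1 CPM in control 1 to 4. Control 2 stood far above every other embryo, and the genotypes overlapped. Of the 24 genes 0 passed the test (1 at an unadjusted p of 0.05, 0 with DESeq2 and 0 with limma-voom). By the ratio of mean CPM, 4 of the 24 were above 0, with a median log2 ratio of -0.44, and without control 2, a comparison chosen after seeing the data, 20 of the 24 were above 0 and the median was 0.58, so the direction rested on that embryo.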

How the data were processed

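The deposited 'HEART' table held raw counts per gene, which the authors made with fastp 0.20.1, STAR 2.7.2b on mm10 and featureCounts 1.6.4, from poly(A)-selected libraries. For the 'SHF' the authors deposited FPKM, 1 value for each genotype and merged locus, in a Cuffdiff layout from which, with the study's mention of FPKM, the unit was inferred. The submitters' notes name STAR 2.5.0b, HTSeq and DESeq2, so the tool behind the FPKM was not stated, and depth is unknown. Both tables also held the authors' own fold changes and p-values, which were not used.

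Counts were fitted with edgeR 4.0.16 in R 4.3.3 (filterByExpr, TMM, glmQLFit, glmQLFTest, cKO against control, no covariate, Benjamini-Hochberg over 12694 genes). SE is the size of the log2 fold change over the root of F. The 95% intervals are of the mean difference between genotypes, given the spread between embryos, and are not ranges of embryos. Samples, grouped by title, were single embryos, with litters not stated. No 2 libraries were identical, and the biological coefficient of variation was 11.2%. Of all genes 446 were higher and 371 lower (54.6% higher of 817 calls), and 43% of 838 calls were higher with unscaled library sizes. For the 'SHF', log2 ratios were taken at loci with 1 symbol and a mean of at least 1 FPKM, using the locus of highest FPKM per symbol. RPKM and positions used GENCODE M21. Alternatives were DESeq2 1.42.0, limma-voom (limma 3.58.1), other scalings and filters, an adjusted p of 0.05, each embryo left out, blocks for replicate number or code prefix, log2 Xist, erythroid genes left out, and the length trend.

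Members, lists and tests were chosen with earlier results of these data known. Values per embryo are given for members past the threshold and the 2 of smallest p in each functional group, and of further lists for up to 4 genes past the threshold or the 2 of smallest p; other members are named by mean or range.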

Additional observations from a re-analysis of the deposited data

Results flagged for a closer look

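Among 130 groups of 4 embryos checked (the members, the further cell cycle and growth genes given with values, Chd7, Xist, the phase means and the summed histones, in each genotype), 9 had 1 embryo far from the other 3, and chance flags about 1 in 20 groups. In cKO hearts Cdk2 had 74.8 CPM in cKO 1, against 69.7 to 70.0 CPM in the others, Mcm4 had 231 CPM in cKO 3, against 245 to 247 CPM, Aurkb had 87.8 CPM in cKO 4, against 77.8 to 79.5 CPM, and Igf2 had 7026 CPM in cKO 4, against 6094 to 6202 CPM. In control hearts Pcna had 182 CPM in control 2, against 165 to 168 CPM in the others, Ccne1 had 79.3 CPM in control 1, against 67.2 to 68.2 CPM, Aurka had 123 CPM in control 3, against 140 to 143 CPM, Xist had 61.4 CPM in control 1, against 0.162 to 1.28 CPM, and the summed histone genes had 162 CPM in control 2, against 45.3 to 53.1 CPM. Only the Xist and histone gaps were larger than 1.5-fold.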

How the results depend on the processing

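Cdkn1b was called alone, 1 member in place of 2, at an adjusted p of 0.05 and with total counts in place of TMM, and with log2 Xist as a covariate Top2a was the 1 member called. Leaving out 1 embryo at a time gave 1 to 2 members, and 500 to 1421 calls over all genes in place of 817 (500 without cKO 2 and 1421 without cKO 4), while log2 Xist gave 235. With total counts the G1/S median was 0.00, as 0.0031, in place of 0.04. Over the 8 omissions the G1/S median was 0.03 to 0.07, the G2/M median 0.07 to 0.13 and their difference 0.021 to 0.088, lowest without cKO 2. Replicate numbers do not pair the embryos (correlations of same-numbered deviations 0.084, 0.056, 0.209 and -0.056), and a replicate block gave 917 calls and 3 members, Top2a joining at an adjusted p of 0.0677. DESeq2 called the same 3 and limma-voom the same 2 as edgeR. With the code prefix as a random block in limma-voom 2 members were called. No member changed from higher to lower past the threshold in any setting. In the 'SHF', 0 members passed 0.32 on the log2 scale with other pseudocounts, other FPKM minimums, ratios centred on all loci or symbols with several loci left out. Intervals reached beyond 0.32 on the higher side for the least expressed members, Cdkn2c, E2f2, Rb1 and Cdk6, but also for better counted ones such as Mki67, and the part of depth was not tested.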
